A study of Homo sapiens with 14 samples.

Results

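The 8 trypsin-like serine protease genes described here were followed in Hep3BTAp73β cells after TAp73β was switched on with doxycycline: PRSS12, PRSS35, PRSS23, PRSS8, PRSS22, ST14, TMPRSS2 and HPN. They were taken by symbol from the array annotation, 8 of 19775 genes tested, and 17 probe sets name 1 of them alone. PRSS23 and TMPRSS2 had 4 such probe sets each, ST14 had 3, PRSS12 had 2, and the other 4 genes had 1. The list was drawn up with the doxycycline differences of these genes already known, so those differences are given as a description with their errors and without a test. Hep3B is an established human hepatocellular carcinoma cell line that lacks p53. The cells carried a TAp73β transgene under a tetracycline-regulated promoter together with the Tet repressor, and came from colonies that resisted blasticidin and G418. The groups were Dox+ cells, given 1 µg/mL doxycycline for 12 h, 24 h or 48 h, and Dox− cells of the same line left without it for the same times. Each of the 12 h and 24 h groups held 2 arrays and each 48 h group held 3, labelled as biological replicates and 14 in all. No array of cells without the transgene was analysed here, so the response to doxycycline itself and that to TAp73β cannot be told apart.

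Trypsin-like serine proteases cut proteins after lysine or arginine with a catalytic triad of histidine, aspartate and serine, and most are made as inactive precursors that another protease cuts. PRSS12 encodes neurotrypsin, a secreted multidomain protease that cleaves the proteoglycan agrin at synapses. PRSS35 and PRSS23 encode secreted proteins of related sequence, and the catalytic serine of PRSS35 is replaced, so that it is classed as a pseudoprotease. ST14 (matriptase), HPN (hepsin), TMPRSS2 and PRSS8 (prostasin) are anchored in the membrane of epithelial cells; hepsin is abundant in liver, matriptase and prostasin act on each other at epithelial surfaces, and TMPRSS2 is known for priming viral spike proteins. PRSS22 encodes a tryptase of airway epithelium. In liver, protease inhibitors such as the hepatocyte growth factor activator inhibitor SPINT1 hold the membrane-anchored enzymes in check.

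The RefSeq promoter table (GRCh38.p14, 35116 windows of 300 bases from 27305 genes, each with 250 bases before and 50 after a gene start) held 4 of the 8 genes: PRSS12, PRSS35, PRSS23 with 2 starts, and HPN. The 250 bases before the start are shown for the 3 genes with the largest Dox+ levels relative to Dox−, 5′ to 3′ on the gene's strand, with each GC box in capitals (GGGCGG on either strand, matches that overlap each other counted separately). PRSS12 lies on the minus strand (chr4:118353004-118353253), PRSS35 on the plus strand (chr6:83512284-83512533), and the downstream one of the PRSS23 starts on the plus strand (chr11:86800292-86800541).
PRSS12: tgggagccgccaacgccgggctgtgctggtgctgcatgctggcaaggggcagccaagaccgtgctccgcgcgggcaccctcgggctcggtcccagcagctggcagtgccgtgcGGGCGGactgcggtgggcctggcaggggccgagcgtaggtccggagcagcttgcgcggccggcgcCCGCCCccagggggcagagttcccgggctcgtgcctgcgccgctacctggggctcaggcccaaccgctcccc
PRSS35: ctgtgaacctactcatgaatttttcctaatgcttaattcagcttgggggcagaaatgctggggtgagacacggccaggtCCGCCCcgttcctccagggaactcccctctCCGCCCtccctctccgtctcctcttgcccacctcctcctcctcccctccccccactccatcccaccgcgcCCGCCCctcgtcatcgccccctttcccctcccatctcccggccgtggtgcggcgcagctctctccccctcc
PRSS23: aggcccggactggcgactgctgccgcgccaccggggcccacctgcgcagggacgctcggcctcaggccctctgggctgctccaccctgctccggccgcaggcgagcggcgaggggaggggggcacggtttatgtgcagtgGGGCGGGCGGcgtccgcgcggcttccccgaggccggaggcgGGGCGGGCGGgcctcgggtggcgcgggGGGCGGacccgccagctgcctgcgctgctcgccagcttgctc
The PRSS12 window held 2 GC boxes, that of PRSS35 held 3 and that of PRSS23 held 5, and 45% of all windows held at least 1. The windows of these 3 starts were 76%, 66.7% and 79.3% G and C, beside a median of 58.7% over all windows, and had 35, 19 and 40 CpG dinucleotides, beside a median of 14. The upstream PRSS23 start (chr11:86790821-86791120 for the whole window) differed, with 49% G and C, 2 CpG dinucleotides and 0 GC boxes. No window of the 4 genes matched TATAAA (11.5% of all windows) or the AP-1 site TGANTCA (7.71%), each searched on both strands.

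The consensus half-site of the p53 family, to which p73 belongs, was found in 6.63% of all windows. Among the 4 genes it was found once, in HPN, whose level did not separate Dox+ from Dox− cells at 12 h or 48 h. The match is shown in capitals with 10 bases on each side (chr19:35041568-35041597, plus strand), and its first base lies at −143 from the start.
HPN: tggaggtccaAGGCAAGCCCcgtagctggg
The windows of PRSS12, PRSS35 and both PRSS23 starts held 0 matches; these letters are absent from these windows, and sequence farther away was not searched.

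TP73, the induced gene, was measured first as a check of the labels. Its main probe set lay at 7.89 to 8.30 on the 7 Dox+ arrays and at 5.82 to 6.08 on the 7 Dox− arrays, on the log2 scale used throughout, with differences of 1.89 after 12 h, 2.27 after 24 h and 1.96 after 48 h (limma adjusted p = 0.00271, 0.000103 and 1.06e-07). Array medians lay between 5.15 and 5.28. The liver label of the line was checked on hepatocyte markers, albumin and α-fetoprotein included, whose mean on the 48 h arrays was 11.33 to 11.43 in Dox+ and 11.78 to 11.82 in Dox− cells.

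Doxycycline set 3 of the 8 genes apart. At 48 h PRSS12 was 18.6-fold higher in Dox+ than in Dox− cells, PRSS35 14.7-fold and PRSS23 2.12-fold, while the other 5 genes differed by at most 1.14-fold in either direction. PRSS12 and PRSS35 were already 5.30-fold and 5.21-fold higher at 12 h. RNA came from whole cultures, so a change in the share of cells that express a gene and a change in RNA per cell cannot be told apart.

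Counted with the limma threshold (Benjamini-Hochberg adjusted p under 0.05 over all genes), 2 of 8 genes were higher in Dox+ cells at 12 h, where 0.647% of all genes were, and 0 were lower, beside 0.0202%. At 24 h 2 were higher, beside 3.01%, and 0 lower, beside 2.81%. At 48 h 3 were higher (PRSS12, PRSS35 and PRSS23), beside 11.3%, and 0 lower, beside 12.9%. Since the genes were selected on these differences, nothing is read from these shares. Quantile normalization of the deposited values moved the split over all genes at 24 h to 615 higher and 345 lower, against 596 and 556 without it. Without the Dox− replicate 1 or without the Dox− replicate 2 at 12 h only PRSS12 passed at that time. All 3 Dox+ arrays lay above all 3 Dox− arrays at 48 h for PRSS12, PRSS35, PRSS23 and PRSS22, a pattern of 17.4% of all genes, and below them for ST14, a pattern of 21.9%.

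**Figure D1:**
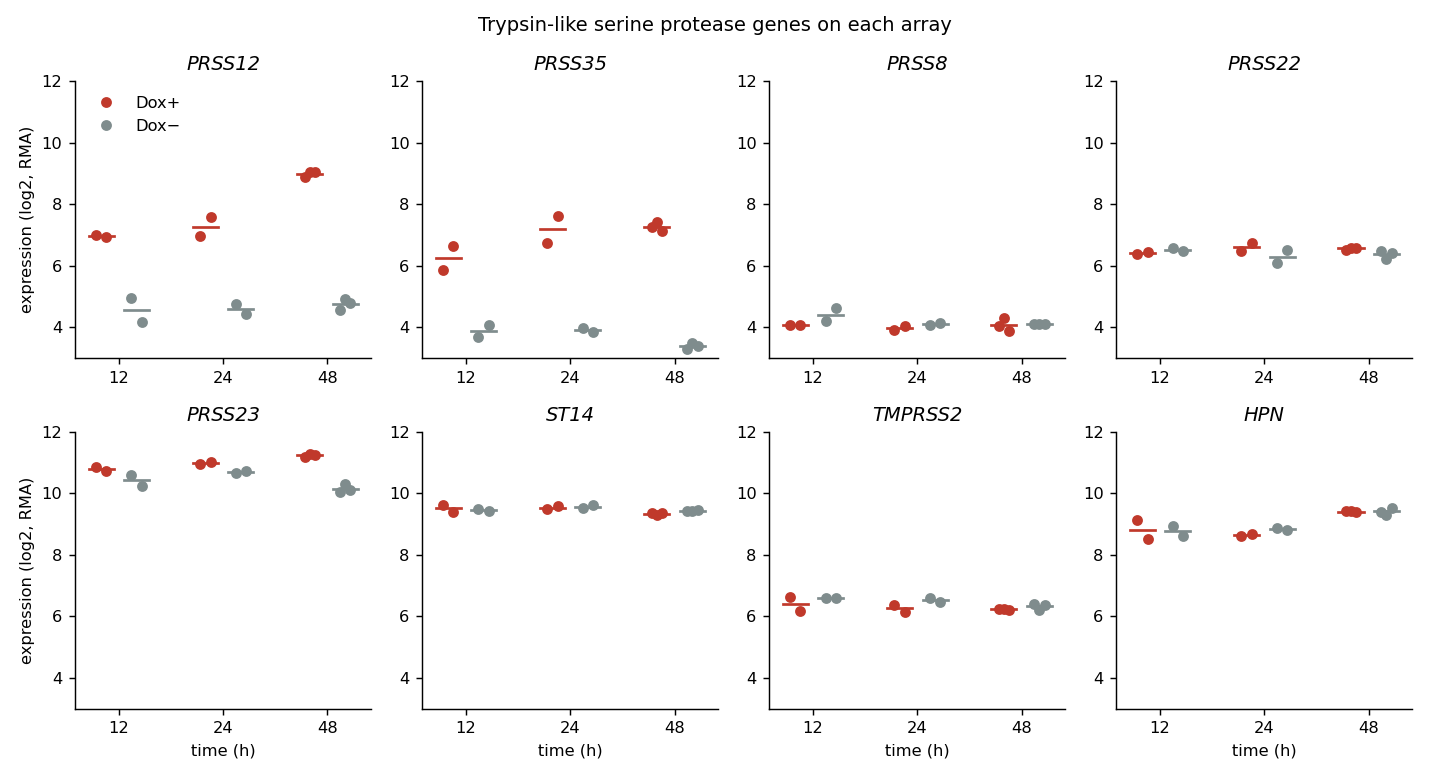
Log2 RMA level (vertical axis, 3 to 12) of the main probe set of each of the 8 protease genes on each array, by time in hours; red points are Dox+ arrays, grey points Dox− arrays, and lines are group means. PRSS12 and PRSS35 are clear of the Dox− arrays at every time, PRSS23 pulls away at 48 h, where its arrays lie at 11.19 to 11.28 in Dox+ cells and 10.03 to 10.30 in Dox− cells, and the other 5 differ by at most 1.14-fold between Dox+ and Dox− cells at that time.

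Neurotrypsin, PRSS12, had the widest range of the 8 genes, 4.86 on the log2 scale over the 14 arrays. Its level was 6.99 and 6.94 in Dox+ cells against 4.94 and 4.18 in Dox− cells at 12 h. At 24 h it was 6.95 and 7.58 in Dox+ cells against 4.76 and 4.44 in Dox− cells. At 48 h it was 8.87, 9.04 and 9.04 in Dox+ cells against 4.57, 4.93 and 4.79 in Dox− cells. The 7 Dox+ arrays all lay above the 7 Dox− arrays, and among the Dox+ arrays the 3 at 48 h were the highest while those of 12 h and 24 h overlapped. In order of time the differences were 2.41 (SE 0.24), 2.67 (SE 0.21) and 4.22 (SE 0.10), or 5.30-fold, 6.35-fold and 18.6-fold, and placed PRSS12 at rank 6, 12 and 6 from the top of all 19775 genes. A second PRSS12 probe set gave smaller differences in the same direction, 0.63 (SE 0.16), 1.39 (SE 0.20) and 3.25 (SE 0.10). On that probe set the Dox+ arrays moved further apart from the Dox− arrays at each later time, with 4.68 and 4.74 against 3.93 and 4.24 at 12 h, and 7.17, 7.32 and 7.46 against 3.93, 4.07 and 4.21 at 48 h.

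PRSS35, the pseudoprotease, was near the bottom of its range in every Dox− culture. Its level was 5.87 and 6.65 in Dox+ cells against 3.68 and 4.08 in Dox− cells at 12 h. At 24 h it was 6.75 and 7.62 in Dox+ cells against 3.98 and 3.84 in Dox− cells. At 48 h it was 7.27, 7.44 and 7.12 in Dox+ cells against 3.31, 3.49 and 3.40 in Dox− cells. The lowest Dox+ array, 5.87, stood clear of the highest Dox− array, 4.08. The Dox+ levels at 24 h and 48 h overlapped, whereas both 12 h arrays were below them. Differences were 2.38 (SE 0.27), 3.28 (SE 0.24) and 3.88 (SE 0.09), that is 5.21-fold, 9.69-fold and 14.7-fold, at rank 7, 6 and 9 among all genes. Replicate 2 of the Dox+ cells exceeded replicate 1 by more than the Dox− replicates differed at both 12 h and 24 h.

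PRSS23, which encodes a secreted serine protease, was measured at 10.03 to 10.71 in Dox− cells on its main probe set. Its level was 10.86 and 10.73 in Dox+ cells against 10.60 and 10.23 in Dox− cells at 12 h. At 24 h it was 10.94 and 11.01 in Dox+ cells against 10.66 and 10.71 in Dox− cells. At 48 h it was 11.19, 11.28 and 11.23 in Dox+ cells against 10.03, 10.30 and 10.12 in Dox− cells. The arrays did not overlap at any of the 3 times, and every Dox+ array lay above every Dox− array. Of all genes, 19.3% had all Dox+ arrays higher at 12 h and 17.4% at 48 h, and the share at 24 h was not counted. The differences were 0.38 (SE 0.17), 0.29 (SE 0.13) and 1.08 (SE 0.08). At 48 h the Dox+ mean exceeded that of 12 h by 0.44, while the Dox− mean was 0.27 below that of 12 h. A pair of other PRSS23 probe sets separated the groups more at 24 h, by 0.97 (SE 0.13) and 0.94 (SE 0.16), and by 1.29 (SE 0.09) and 0.74 (SE 0.10) at 48 h. The fourth one measured levels between 4.59 and 5.54, and its arrays overlapped at every time, with a difference of 0.03 (SE 0.07) at 48 h.

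**Figure D2:**
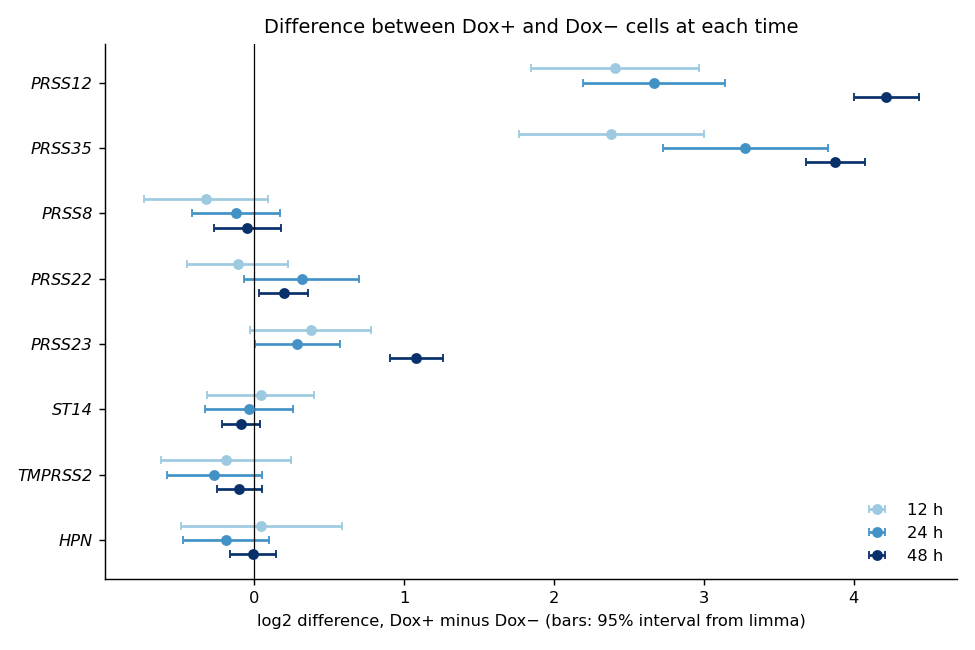
Log2 difference, Dox+ minus Dox−, of each protease gene after 12 h, 24 h or 48 h (light to dark), with bars for the 95% interval from limma. The 48 h differences are 4.22 for PRSS12, 3.88 for PRSS35 (interval 3.68 to 4.08) and 1.08 for PRSS23 (interval 0.91 to 1.26), and the 48 h intervals of PRSS8, ST14, TMPRSS2 and HPN include 0.

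The 4 membrane-anchored genes showed no difference of that size. ST14, matriptase, had levels of 9.36, 9.29 and 9.35 in Dox+ cells against 9.42, 9.42 and 9.44 in Dox− cells at 48 h, and spanned 0.33 over all 14 arrays, the least of the 8 genes. The 48 h arrays did not overlap, but the difference was small, −0.09 with a 95% interval from −0.22 to 0.03. At 12 h and 24 h the ST14 groups overlapped, with differences of 0.04 and −0.03. A second ST14 probe set lay lower in every Dox+ array than in every Dox− array of the same time, by 0.18, 0.27 and 0.17 in order of time (SE 0.14, 0.17 and 0.06). The third differed by −0.42, −0.03 and −0.16, with levels of 3.84 to 4.32 in Dox+ and 4.07 to 4.83 in Dox− cells.

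HPN, hepsin, was at 9.41, 9.42 and 9.38 in Dox+ cells against 9.41, 9.31 and 9.53 in Dox− cells at 48 h. These arrays overlapped, and the interval of the difference, −0.17 to 0.15, leaves room for a shift of that size in either direction. At 12 h its level was 9.14 and 8.50 in Dox+ cells against 8.93 and 8.62 in Dox− cells, and at 24 h it was 8.63 and 8.66 in Dox+ cells against 8.88 and 8.79 in Dox− cells. Its differences were 0.05, −0.19 and −0.01, and both Dox+ arrays lay below both Dox− arrays at 24 h only. The share of all genes with that pattern was not counted for 24 h, and was 27.6% at 12 h.

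TMPRSS2 had levels of 6.64 and 6.17 in Dox+ cells against 6.58 and 6.60 in Dox− cells at 12 h, 6.38 and 6.15 in Dox+ cells against 6.61 and 6.46 in Dox− cells at 24 h, and 6.24, 6.25 and 6.21 in Dox+ cells against 6.41, 6.22 and 6.37 in Dox− cells at 48 h. The main probe set was lower on average at each time, by 0.19, 0.27 and 0.10 (SE 0.19, 0.14 and 0.07). Its groups were apart at 24 h only, a pattern not counted over all genes for that time. The other 3 TMPRSS2 probe sets were higher in Dox+ cells at 24 h, by 0.05, 0.10 and 0.30. On the last of them both Dox+ arrays lay above both Dox− arrays. At 48 h these 3 differed by −0.06 to 0.02. PRSS8, prostasin, was at 4.09 and 4.07 in Dox+ cells against 4.19 and 4.61 in Dox− cells at 12 h, and at 3.92 and 4.06 in Dox+ cells against 4.07 and 4.14 in Dox− cells at 24 h. Both Dox+ arrays lay below both Dox− arrays at these times, a pattern of 27.6% of all genes at 12 h and not counted for 24 h. At 48 h the groups overlapped, at 4.04, 4.29 and 3.87 in Dox+ cells against 4.10, 4.12 and 4.12 in Dox− cells. Every PRSS8 level was below the array medians of 5.15 to 5.28. PRSS8 differed by −0.32, −0.12 and −0.05 (SE 0.18, 0.13 and 0.10), with the 48 h interval from −0.27 to 0.18. PRSS22, the airway tryptase, had levels of 6.40 and 6.44 in Dox+ cells against 6.59 and 6.47 in Dox− cells at 12 h, and 6.53, 6.57 and 6.59 in Dox+ cells against 6.47, 6.23 and 6.40 in Dox− cells at 48 h. Its arrays were apart at both times but in opposite directions, with differences of −0.11 (SE 0.15) and 0.195 (SE 0.07). At 24 h they overlapped, at 6.49 and 6.72 in Dox+ cells against 6.08 and 6.50 in Dox− cells. Of all genes, 1.92% had all Dox+ arrays lower at 12 h and higher at 48 h.

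**Figure D3:**
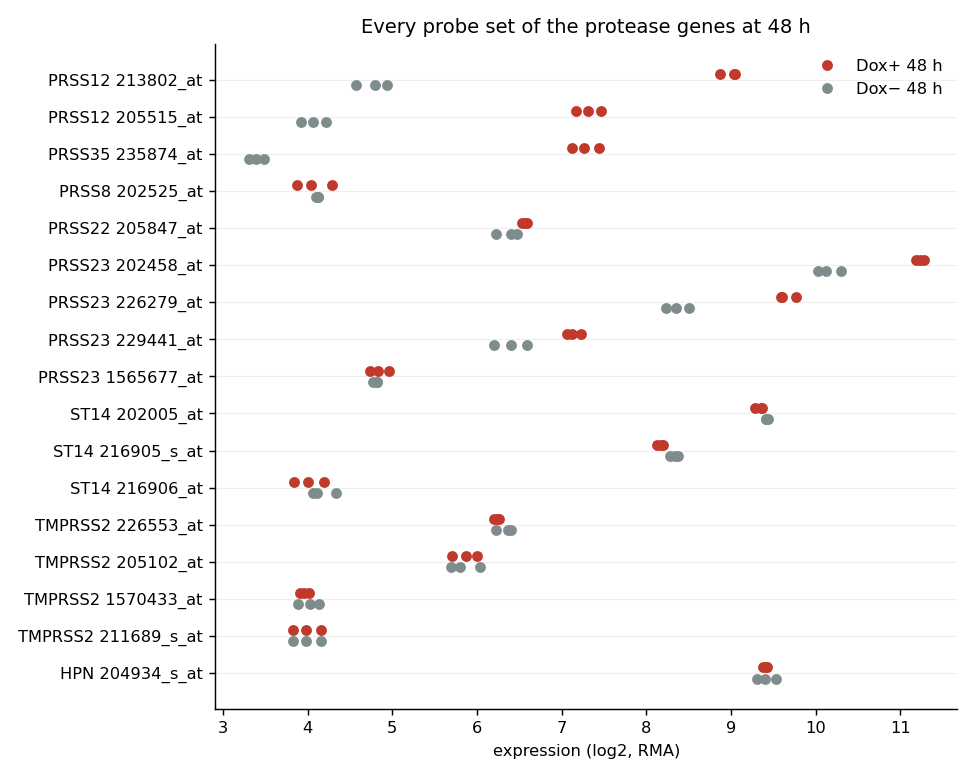
Log2 RMA level of all 17 probe sets of the 8 genes on the 48 h arrays; red points are the 3 Dox+ arrays and grey points the 3 Dox− arrays. Both PRSS12 probe sets, the PRSS35 probe set and 3 of the 4 PRSS23 probe sets have the red points well to the right, with differences from 0.74 to 4.22, and the fourth PRSS23 probe set, between 4.74 and 4.96 in Dox+ and 4.77 and 4.83 in Dox− cells, does not.

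Change over time without doxycycline is a contrast that did not enter the choice of genes, although it uses the same Dox− arrays. From 12 h to 48 h HPN rose and PRSS35 fell in Dox− cells in the main fit. The Dox− levels of PRSS35 lie below the array medians of 5.15 to 5.28, where a small shift need not be a change in RNA. HPN was at 9.41, 9.31 and 9.53 at 48 h against 8.93 and 8.62 at 12 h, a difference of 0.64 (SE 0.12, limma adjusted p = 0.0135), and the arrays did not overlap. In Dox+ cells its mean was higher by 0.58 over the same time, given without a test. PRSS35 was at 3.31, 3.49 and 3.40 at 48 h against 3.68 and 4.08 at 12 h, a difference of −0.48 (SE 0.13, limma adjusted p = 0.0327), also without overlap, whereas its Dox+ mean was higher at 48 h than at 12 h by 1.01. Of all genes 9.27% rose and 10.6% fell in this contrast, beside 1 and 1 of the 8 proteases, so these counts do not set the family apart. Quantile normalization moved the split over all genes to 873 higher and 1723 lower, against 1834 and 2093 without it; PRSS35 did not pass then (adjusted p = 0.113).

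The remaining 6 genes did not pass between 12 h and 48 h in Dox− cells. Their differences ran from −0.29 for PRSS8 (SE 0.13) to 0.21 for PRSS12 (SE 0.21), with adjusted p from 0.104 to 0.762. The fall of PRSS35 was called in 6 of 13 alternatives and the rise of HPN in 13 of 14. PRSS35 was not past the threshold with the replicate number as a block (adjusted p = 0.0872) or in 1 fit of all 14 arrays (0.127), where HPN was (0.0406 and 0.00854). PRSS35 also missed it without the Dox− replicate 2 of 12 h (adjusted p = 0.139) or without replicate 1, 2 or 3 of 48 h (0.104, 0.0768 and 0.0958), and the rise of HPN was not without replicate 3 of 48 h (0.0572). From 12 h to 24 h none of the 8 genes changed in Dox− cells by limma, where 0% of all genes rose and 0.00506% fell. At an unadjusted p under 0.05 there were 1697 higher and 2365 lower genes in that contrast, and 0 of the 8. Without the Dox− replicate 1 of 12 h, PRSS8 passed in that contrast (adjusted p = 0.0347).

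Of the 8 genes, 4 spanned at least 1 on the log2 scale over the 14 arrays, and for each the 3 genes with the nearest profile were found by the root mean square difference after each gene's mean was taken off. PRSS12 was nearest to NRP2, a co-receptor for semaphorins and vascular endothelial growth factors (0.42), then to FBN1, the microfibril protein fibrillin (0.52), and CYP4F3, a fatty acid hydroxylase (0.55). NRP2 was also nearest to PRSS35, at 0.30, followed by GGT6 (0.43) and the hyaluronan synthase HAS3 (0.43). In order of time NRP2 was higher in Dox+ cells by 2.17, 2.88 and 4.01, beside 2.41, 2.67 and 4.22 for PRSS12 and 2.38, 3.28 and 3.88 for PRSS35. PRSS23 was nearest to the chemokine CXCL1 (0.10), MTCL1 (0.12) and the tight junction protein CLDN1 (0.13). HPN was nearest to IDI1, an enzyme of isoprenoid synthesis (0.11), the catalase gene CAT (0.12) and SNX14 (0.12). These values describe likeness over 14 arrays that share the doxycycline and time groups.

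Related genes were taken from lists of other trypsin-like proteases, their inhibitors and their substrates or receptors, 121 genes in all with 102 measured. Of these, 11 rose and 11 fell at 48 h, where 11.3% of all genes rose and 12.9% fell, and the rest did not pass. Here and below, rose and fell mean higher and lower in Dox+ than in Dox− cells of the same time. None of the 13 other membrane-anchored proteases measured of 17 listed was past the limma threshold, with differences from −0.24 to 0.19 and a median of −0.04, beside −0.02 over all genes. None of the 14 secreted trypsins, tryptases and other PRSS genes measured of 20 was either, with differences from −0.12 to 0.07 and a median of −0.07. At an unadjusted p under 0.05, 0 were higher and 1 lower on the first list, and 0 and 0 on the second. Mean levels at 48 h on the first list were 5.05 to 5.19 in Dox+ and 5.08 to 5.19 in Dox− cells. On the second they were 5.29 to 5.32 and 5.32 to 5.39. These lie near the array medians of 5.15 to 5.28, so dim genes among them may not show a change in RNA. With dim genes left out, 38 of the 102 list genes were tested and 17 passed, beside 5038 of 9888 over all genes. Among 15 kallikreins measured of 16, 1 rose, KLKB1 (plasma prekallikrein), by 0.41 (SE 0.09, adjusted p = 0.00759), and the median was −0.01. KLKB1 was dim, at 4.90 to 5.23 in Dox+ cells against 4.58 to 4.71 in Dox− cells. It differed by 0.22 at 12 h and −0.01 at 24 h, and did not pass at 48 h by Student's t-test (adjusted p = 0.0745).

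Plasma and fibrinolytic proteases moved both ways, with 3 of 21 higher, 4 lower and a median of 0.10. The first-component complement proteases rose together. C1R was at 8.13 to 8.41 in Dox+ cells against 7.02 to 7.13 in Dox− cells, a difference of 1.22 (SE 0.08, adjusted p = 9.7e-06). C1S was at 8.84 to 8.96 in Dox+ cells against 7.69 to 7.74 in Dox− cells, a difference of 1.21 (SE 0.06, adjusted p = 1.63e-06). The coagulation factor F11 rose by 0.60 (SE 0.08), though its other 3 probe sets differed by −0.11 to 0.02, and the anticoagulant protease PROC fell by 0.55 (SE 0.08). F12, MASP1 and F2, which fell by 0.54, 0.31 and 0.30, made up the 4.

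Inhibitors also split, with 4 of 22 measured higher and 5 lower (27 listed, median −0.05). The largest change was in SPINK1, the secreted trypsin inhibitor, at 5.36 to 6.53 in Dox+ cells against 8.64 to 8.85 in Dox− cells at 48 h. That is a difference of −2.91 (SE 0.24, adjusted p = 3.82e-05), after −1.09 (SE 0.14, adjusted p = 0.00284) at 24 h and −0.21 (SE 0.20) at 12 h. SERPINE2, a thrombin and urokinase inhibitor, rose by 0.67 (SE 0.11), but its other probe set differed by −0.04. SERPINA1, which encodes α1-antitrypsin, rose by 0.54 (SE 0.06). SPINT1, inhibitor of matriptase and hepsin, was higher in Dox+ cells by 0.53 (SE 0.09, adjusted p = 0.00244). At 12 h it was lower by 0.56 (SE 0.29), which did not pass. From 12 h to 48 h its mean went from 10.04 to 9.08 in Dox− cells and from 9.48 to 9.61 in Dox+ cells. A second SPINT1 probe set differed by 0.05 at 48 h, and in 1 fit of all 14 arrays the adjusted p was 0.151.

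Of 17 substrates and receptors measured of 20 listed, 3 rose and 2 fell, with a median of 0.01. AGRN encodes agrin, the substrate of neurotrypsin. It was at 10.28 to 10.50 in Dox+ cells against 9.21 to 9.40 in Dox− cells at 48 h, a difference of 1.13 (SE 0.08, adjusted p = 1.6e-05). At 24 h AGRN was at 10.98 and 11.11 in Dox+ cells against 9.25 and 10.70 in Dox− cells, a difference of 1.07 (SE 0.37) that did not pass. The 12 h difference was −0.27 (SE 0.35). From 12 h to 48 h the AGRN mean went from 10.61 to 9.295 in Dox− cells and from 10.34 to 10.42 in Dox+ cells. Another AGRN probe set differed by 1.18 at 48 h and the other 2 by 0.06 and 0.04. SCNN1A, the alpha subunit of the epithelial sodium channel that prostasin activates, rose by 0.83 (SE 0.10, adjusted p = 0.000296) on its main probe set and differed by 0.11 and −0.18 on the other 2. EGFR, whose extracellular part prostasin cleaves, rose by 0.55 (SE 0.10, adjusted p = 0.00326), and 1 of its other 8 probe sets passed in the same direction at 0.45. The thrombin receptor F2R was lower in Dox+ cells at 48 h by 0.36 (SE 0.10, adjusted p = 0.0333), and its other probe set differed by 0.12. Its earlier differences were −0.47 (SE 0.18) at 12 h, which did not pass, and −0.58 (SE 0.13, adjusted p = 0.0401) at 24 h. With any 1 of the 3 Dox+ arrays or with Dox− replicate 1 or 2 left out at 48 h, the adjusted p of F2R at that time was 0.0725 to 0.0932.

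**Figure D4:**
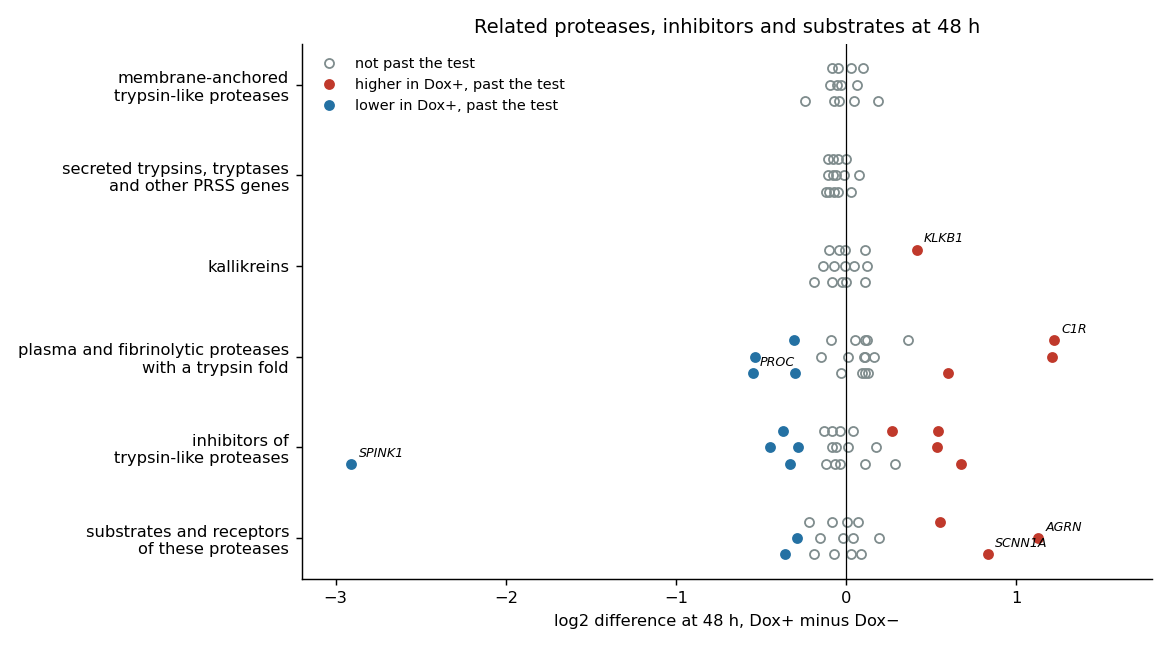
Log2 difference at 48 h, Dox+ minus Dox−, of the 102 measured genes of 6 lists, 1 point per gene; red points rose and blue points fell past the limma threshold, and open points did not pass. The 8 genes described here are not on these lists. None of the listed membrane-anchored proteases or secreted trypsins, tryptases and other PRSS genes passed. SPINK1 lies farthest out at −2.91, and C1R and AGRN lead on the right at 1.22 and 1.13.

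Of 33 marker genes measured, 5 rose and 8 fell at 48 h, and of the 25 that do not mark hepatocytes 5 rose and 2 fell, beside 11.3% and 12.9% of all genes; their part in the protease values was not tested. Of 8 hepatocyte markers measured of 10 listed, 0 rose and 6 fell, among them APOA1 by 0.86 and TTR by 0.82, while ALB differed by −0.01. Of 5 cholangiocyte markers 1 rose and 1 fell, with KRT19 at 0.47 and SOX9 at −0.40. Of 6 squamous markers 2 rose, KRT15 by 0.61 and KRT5 by 0.30, and their array means were 4.50 to 4.64 in Dox+ and 4.41 to 4.47 in Dox− cells. None of 5 endothelial markers passed, with means of 4.77 to 4.86 in Dox+ and 4.75 to 4.84 in Dox− cells. Of 4 leukocyte markers 0 rose and 1 fell (LYZ, by 0.92), with means of 6.86 to 6.95 in Dox+ and 6.93 to 7.08 in Dox− cells. Of 5 stellate and fibroblast markers 2 rose, ACTA2 by 0.97 and DCN by 0.20, with means of 5.75 to 5.79 in Dox+ and 5.53 to 5.64 in Dox− cells.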

How the data were processed

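Total RNA of 14 cultures was measured on Affymetrix U133 Plus 2.0 arrays. The deposited values are log2 values that the authors obtained by RMA (R 3.5.1 in the processing notes, with BRB-ArrayTools and the exclusion of outlier arrays named in the methods); no genome build was needed. RMA pulls dim probe sets toward a common floor, so a fold change of a dim gene is understated. Each gene was represented by its single-gene probe set with the highest mean over 14 arrays (41091 probe sets with 1 gene, 1801 with several and 11721 with none in the platform annotation; 41037 were matched through Entrez), leaving 19775 genes.

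At each time the Dox+ arrays were set against the Dox− arrays by limma 3.58.1 in R 4.3.3 (lmFit, eBayes, two-sided), and the 7 Dox− arrays were fitted together for change over time, with Benjamini-Hochberg adjustment over all genes and a threshold of 0.05. Intervals are 95% and come from the same fits. The calculation was tested on simulated data. Tables and figures were made with pandas 2.3.3, numpy 2.4.6 and matplotlib 3.10.9 in Python 3.11.15. Promoter windows are those of RefSeq GRCh38.p14.

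The 8 genes, the gene lists and the tests were chosen with earlier results of these data known. The text names the 8 genes, TP73, from each related list up to 4 genes, those that passed at 48 h and changed most, the 3 nearest profiles of each protease gene that spanned at least 1 on the log2 scale, and, to complete counts, F12, MASP1, F2 and marker genes chosen after their values were seen. Genes of the lists without a single-gene probe set were not analysed here. The number of arrays limits the precision. Alternatives were other fits, normalizations, probe set choices, filters, Student's t-test and each array left out. The methods name Student's t-test for the study in general and class comparison in BRB-ArrayTools for the arrays.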

Additional observations from a re-analysis of the deposited data

Results flagged for a closer look

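PRSS22 stood out because its Dox+ arrays all lay on 1 side of the Dox− arrays at 12 h and on the other side at 48 h. At 12 h the difference was −0.11, with 6.40 and 6.44 in Dox+ cells against 6.59 and 6.47 in Dox− cells. At 48 h it was 0.195, with 6.53, 6.57 and 6.59 in Dox+ cells against 6.47, 6.23 and 6.40 in Dox− cells. The difference at 12 h is smaller than its SE of 0.15, and the difference between the times was not tested. Dox+ arrays lay all below the Dox− arrays at 12 h for 27.6% of all genes, and 5.19% of all genes were apart at both times in opposite directions, 1.92% in the direction of PRSS22. Groups of 2 or 3 arrays are too small for a check of single arrays that stand apart.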

How the results depend on the processing

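Of the 321 differences of the 8 genes recomputed under alternatives, 314 stayed within the replicate SD, 7 moved by more, and 0 of the called ones changed sign. Many of the 314 could not move. Another fit or test of the same values leaves the difference of group means as it was, so this count is no measure of robustness. In order of time, 2, 2 and 3 of the 8 genes were called. This count was 0, 0 and 1 with dim genes left out, since 3 of the 8 (PRSS23, ST14 and HPN) were then tested, and 0 at 12 h and 24 h by Student's t-test after adjustment. It was 3 at 24 h with the probe set of largest interquartile range, on which PRSS23 differed by 0.97 at that time, against 0.29 on its main probe set. Leaving out 1 array at a time, the count was 1 to 2 at 12 h, and for Dox− cells 0 to 1 between 12 h and 24 h and 0 to 4 between 12 h and 48 h (2 with all Dox− arrays). The 4 were HPN, PRSS12, PRSS35 and PRSS8, without Dox− replicate 1 of 12 h. That last count was 1 (HPN) in a fit of all 14 arrays, with the replicate block or with dim genes left out, and 4 (HPN, PRSS23, PRSS35 and ST14) with the probe set of largest interquartile range; the cause was not tested. Under quantile normalization it was 2, HPN and PRSS23. EGFR at 48 h was −0.13 on the probe set of largest interquartile range, and F2R was 0.12 with _x_at probe sets left out, each a different probe set. Whether the replicate numbers pair the samples at every time cannot be told from these values. Deviations of same-numbered arrays correlated at 0.255 at 12 h and 0.089 to 0.109 at 48 h, where every array went best with its own number. At 24 h the correlation was −0.11. With 2 arrays per group, same-numbered and differently numbered arrays must correlate equally and oppositely. The sign at 12 h or 24 h therefore does not show which arrays belong together. With the replicate block 469, 1202 and 4719 genes were called in order of time, against 132, 1152 and 4778 without it, with 2, 2 and 3 of the 8. Between 12 h and 48 h in Dox− cells it was 1188 against 3927. A crossed pairing at 24 h, chosen after seeing the data, gave 1593. Over all genes, the counts at 12 h were 0 by the methods' t-test, 4 to 227 with an array left out and 1683 in a fit of all 14 arrays. In the same order they were 0, 647 to 863 and 2308 at 24 h, and 3477, 3832 to 4208 and 2798 at 48 h. Between 12 h and 48 h in Dox− cells they were 469 to 4863 with an array left out, and between 12 h and 24 h 0 to 1600, against 1.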
